A study of Mus musculus with 18 samples.

Results

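The GIMAP genes encode GTPases of the immunity-associated protein family, and all 8 members annotated under these symbols in the count table (Gimap1, Gimap3, Gimap4, Gimap5, Gimap6, Gimap7, Gimap8 and Gimap9) were followed here, 8 of the 50600 genes in the table. The set was defined by gene name, but it was chosen with earlier results of these data known. Each gene was matched through its Ensembl identifier. Their transcripts were counted in Tregs, the Foxp3+ CD4+ T cells that restrain immune responses, sorted from C57BL/6 mice with or without Il2ra, the gene of the IL-2 receptor alpha chain CD25. The series asked how signalling through this receptor acts on Tregs while they form in the thymus and after they have reached the spleen.

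There were 4 groups of mice, 18 in all, each giving 1 RNA-seq library. The thymic groups held 5 CD25 WT mice, which carried a Foxp3/RFP reporter, and 5 CD25 KO mice, in which Cre driven from Foxp3 removed an exon of a floxed Il2ra gene in Tregs. Both were 3-4 weeks old, and the KO mice had been given WT splenocytes intravenously as neonates to keep them from autoimmune disease. The thymic WT and KO mice thus differed in reporter allele, in Foxp3-driven Cre (named only for the KO mice) and in neonatal transfer as well as in CD25. These differences cannot be told apart. The splenic groups held 4 CD25 WT reporter controls and 4 mice in which a Foxp3-driven, tamoxifen-inducible Cre removed the same floxed exon. Both splenic groups received tamoxifen at 7-10 weeks of age, and their Tregs were taken 10-14 days later. Assigned counts per library ran from 17239774 to 23993674 for thymic and from 25258341 to 32639570 for splenic Tregs, and a single member drew between 594 and 33113 counts.

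GIMAP proteins share a GTP-binding domain, and several are anchored to membranes of organelles such as the endoplasmic reticulum, mitochondria, Golgi or lysosome. Their genes lie side by side in vertebrate genomes and are expressed chiefly in lymphocytes, where loss of some members leaves too few mature T cells. The family has been linked to the BCL2 proteins that control mitochondrial apoptosis and, through Gimap6, to the ATG8 proteins of autophagy. Only transcripts were measured here, neither survival of the cells nor GIMAP protein.

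On GRCm38 the members occupied 123.6 kb of chromosome 6, between 48647234 and 48770851, in the order Gimap8, Gimap9, Gimap4, Gimap6, Gimap7, Gimap1, Gimap5 and Gimap3. Gimap6 and Gimap3 lie on the minus strand and the other 6 on the plus strand. Part of the cluster overlaps other annotated transcripts. The antisense gene Gimap1os covers 36% of the exonic bases of Gimap1 (ENSMUSG00000090019.5), and the read-through gene Gm28053 covers 6.44% of Gimap1, 3.69% of Gimap5 (ENSMUSG00000043505.8) and 3.48% of Gimap7 (ENSMUSG00000043931.10). Gimap3 (ENSMUSG00000039264.9) and Gimap5 share 83 stretches of 75 bases, the read length, which are 3.32% of those in Gimap3 and 1.97% of those in Gimap5. How reads on such stretches were assigned was not stated, so the counts of these 4 genes carry that uncertainty. Gimap4 (ENSMUSG00000054435.16), Gimap6 (ENSMUSG00000047867.11), Gimap8 (ENSMUSG00000064262.7) and Gimap9 (ENSMUSG00000051124.6) overlapped no other annotated exon and shared no such stretch.

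The promoter windows of 3 members are shown because these genes stand for the range of responses described below: Gimap7 was called higher in splenic CD25 KO Tregs, Gimap6 had the smallest adjusted p-value in the thymus, and Gimap3 had the splenic fold change nearest to none. Each window runs 5′ to 3′ on the gene's own strand, from 250 bases before to 50 bases after the RefSeq start site (GRCm38.p6). Capitals mark matches on either strand to the STAT motif TTCNNNGAA, the RUNX motif TGTGGT or the forkhead motif TGTTTAC.
Gimap7, chr6:48718371-48718670, plus strand: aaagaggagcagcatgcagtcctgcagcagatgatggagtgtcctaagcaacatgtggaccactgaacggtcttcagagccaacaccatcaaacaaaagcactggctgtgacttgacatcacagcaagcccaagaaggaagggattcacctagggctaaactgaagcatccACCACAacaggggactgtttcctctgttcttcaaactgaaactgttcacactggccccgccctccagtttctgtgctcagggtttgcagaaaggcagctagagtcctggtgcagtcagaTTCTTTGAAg
Gimap6, chr6:48708195-48708494, minus strand: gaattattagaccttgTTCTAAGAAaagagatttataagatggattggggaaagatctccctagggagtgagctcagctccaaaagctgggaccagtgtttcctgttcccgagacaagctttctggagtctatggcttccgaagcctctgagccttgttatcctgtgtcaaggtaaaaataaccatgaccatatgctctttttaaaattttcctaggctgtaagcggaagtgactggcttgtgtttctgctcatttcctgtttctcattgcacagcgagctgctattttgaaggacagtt
Gimap3, chr6:48770802-48771101, minus strand: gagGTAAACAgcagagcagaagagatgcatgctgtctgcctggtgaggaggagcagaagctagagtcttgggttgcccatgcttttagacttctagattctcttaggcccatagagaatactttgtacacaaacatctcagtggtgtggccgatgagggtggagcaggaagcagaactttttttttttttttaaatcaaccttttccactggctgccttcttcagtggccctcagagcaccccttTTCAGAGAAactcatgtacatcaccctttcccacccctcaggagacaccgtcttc
The 8 genes had 9 windows, since Gimap8 has 2 RefSeq starts. The STAT motif, a letter pattern bound by STAT5 downstream of the IL-2 receptor, lay in the windows of 4 genes: Gimap3, Gimap6, Gimap7 and Gimap8. It was found in 8.30% of all 32851 promoter windows in the table. The RUNX motif lay in those of Gimap1, Gimap4 and Gimap7 and in 16.8% of all windows, and the forkhead motif in that of Gimap3 and in 3.65% of all windows. The motifs did not overlap one another, and a match is a description of the letters, not evidence of binding. Genes with the STAT motif included those with the largest and the smallest splenic fold changes among the members.

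The loss of Il2ra transcripts was first checked in every mouse. In the thymus, Il2ra was at 667.8, 646.6, 526.4, 683.1 and 546.3 CPM (a gene's counts relative to the TMM-scaled library size, on the usual CPM scale) in the WT mice and at 104.6, 288.2, 95.2, 235.7 and 97.3 CPM in the CD25 KO mice. In splenic Tregs Il2ra was at 528.7, 480.8, 526.7 and 533.9 CPM in the WT mice and at 188.8, 208.4, 165.8 and 181.2 CPM in the KO mice. Every KO mouse lay below every WT mouse of its tissue, in the direction the labels give, and thymic KO mice 2 and 4 kept more Il2ra transcript than the other 3. The log2 fold change was -1.90 in the thymus (SE 0.30, adjusted p = 0.00239) and -1.49 in the spleen (SE 0.07, adjusted p = 1.39e-09). These and all adjusted p-values below come from the edgeR quasi-likelihood test with Benjamini-Hochberg adjustment over all genes tested, and a gene was called at a false discovery rate (FDR) below 0.01. Reads from the exons that Cre leaves in place still count toward Il2ra, so this check does not measure how complete the deletion was. The sorted cells carried the transcripts of their label: the 6 T cell and Treg markers (Cd3d, Cd3e, Cd3g, Cd4, Foxp3 and Ikzf2) summed to between 3330 and 4316 CPM in every library. The sum hides shifts of single markers. In thymic KO Tregs 2 were called lower and 0 higher: Foxp3 (log2 fold change -0.74, adjusted p = 0.00101) and Cd3e (-0.43, adjusted p = 0.000557). Ikzf2, the most abundant of the markers, was at 0.44 there and was not called (adjusted p = 0.0392).

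Together the 8 GIMAP genes were abundant in Tregs of all groups. Their summed level was 2443 ± 127.95 CPM (SD, n = 5) in thymic WT, 2737 ± 452 CPM (n = 5) in thymic KO, 3266 ± 181 CPM (n = 4) in splenic WT and 3567 ± 71.4 CPM (n = 4) in splenic KO Tregs. The splenic KO mice, at 3491 to 3654 CPM, all exceeded the highest splenic WT mouse at 3488 CPM, although by a narrow margin, whereas thymic KO mice ranged from 2295 to 3394 CPM around the WT range of 2300 to 2616 CPM. Because these are bulk samples, a change in the share of cells that express a gene cannot be told apart from a change in transcript per cell.

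Per kilobase of exon, 2 members made up most of the family. In thymic WT Tregs, Gimap4, a member linked to T cell apoptosis, was at 308.8 CPM per kb and Gimap3, which resides in the mouse on organelle membranes and is a pseudogene in humans, at 283.6 CPM per kb. Below them came Gimap6 at 137 CPM per kb, Gimap8, the member with several GTPase domains in tandem, at 87.5 and Gimap9 at 58.6. Gimap1, which mature T and B cells need, was at 39.1 CPM per kb, Gimap7 at 22.4 and Gimap5, the gene mutated in lymphopenic BB rats, at 17.9. Neighbours in this order did not overlap between mice, except that the ranges of Gimap4 and Gimap3 overlapped, as did those of Gimap7 and Gimap5. In splenic WT Tregs Gimap3 stood first at 414.5 CPM per kb, with a range that overlapped that of Gimap4 at 382.1 CPM per kb, and Gimap7 at 49.6 CPM per kb stood just above Gimap1 at 46.8, with overlapping ranges. In all 4 groups Gimap6, Gimap8 and Gimap9 followed, in this order, behind Gimap4 and Gimap3.

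**Figure D1:**
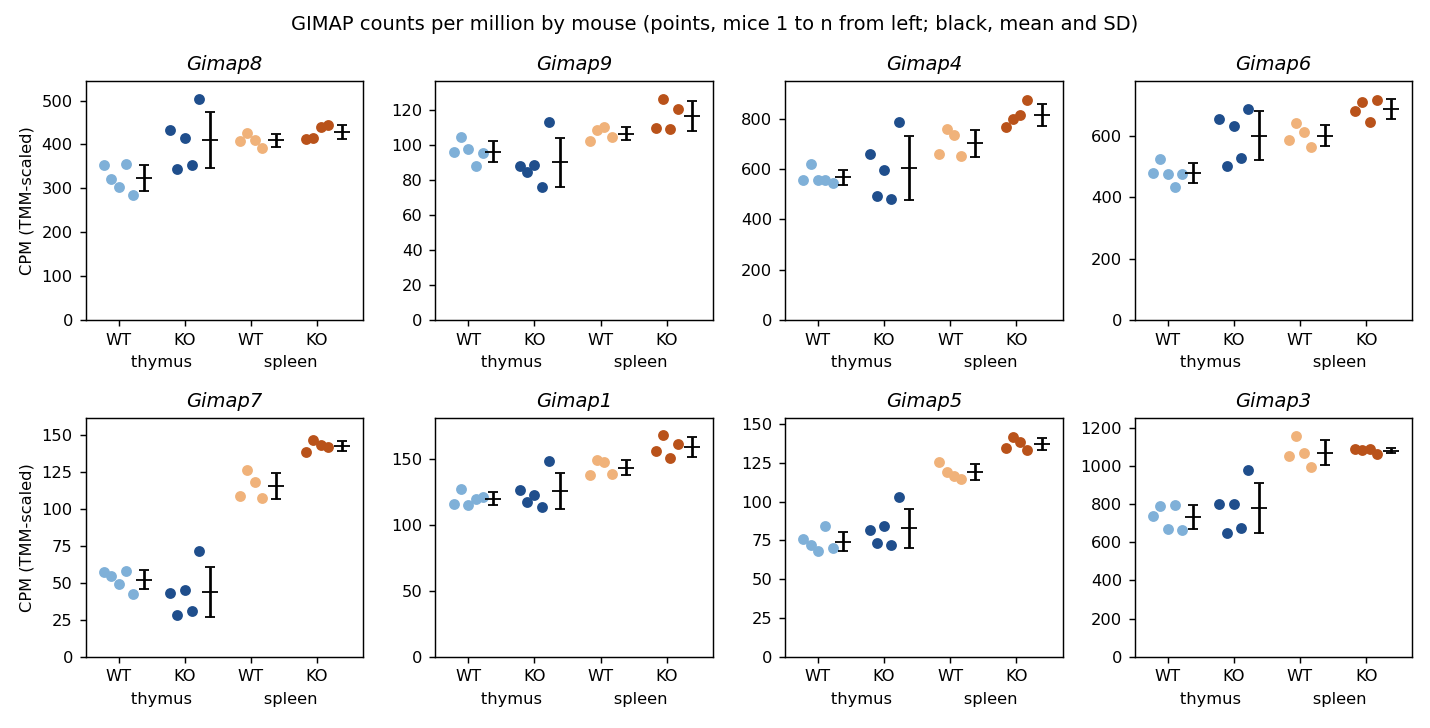
GIMAP transcript levels in single mice. Each panel plots 1 gene in TMM-scaled CPM (y axis, from 0) for thymic and splenic WT and CD25 KO Tregs (5, 5, 4 and 4 mice, points from left to right in mouse order), with the mean and SD in black. Splenic KO mice lie above splenic WT mice without overlap for Gimap1, Gimap4, Gimap5, Gimap6 and Gimap7, and the points of the thymic KO group are spread widely for every gene.

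In splenic Tregs 1 GIMAP gene, Gimap7, was called higher in CD25 KO mice, 1.22-fold, a call that some alternatives below did not keep. The other 7 had smaller positive fold changes that were not called. All 8 members had positive log2 fold changes, from 0.002 for Gimap3 to 0.29 for Gimap7, with a median of 0.16 against -0.01 over all genes tested. Gimap3 kept this sign in 7 of 15 alternatives and Gimap8 in 14 of 15. The share of all genes with positive values was not computed. The members also varied together from mouse to mouse, so the signs are not separate observations. Only Gimap7 was called, 1 of 8 higher and 0 of 8 lower, where 5.90% of all genes tested were called higher and 3.55% lower. The count of calls thus was not far from the background. In addition, 4 members (Gimap4, Gimap5, Gimap6 and Gimap7) had an adjusted p below 0.05. Of all genes tested, 10.2% reached that level with higher values in KO mice. For 5 members every KO mouse exceeded every WT mouse, an arrangement found in 11.8% of all genes tested.

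Gimap7, a GTPase whose human counterpart hydrolyses GTP when it dimerizes, was at 108.9, 126.3, 118.5 and 107.6 CPM in the splenic WT mice and at 138.4, 146.6, 143.0 and 141.7 CPM in the KO mice. The KO mice were tightly grouped and all above the highest WT mouse. The increase was 1.22-fold (log2 fold change 0.29, SE 0.06, adjusted p = 0.00195). It was no longer called when splenic WT mouse 4, the lowest of its group, was left out (log2 fold change 0.26, adjusted p = 0.0114), after a correction for GC content (0.24, adjusted p = 0.0148) or in a fit of all 18 samples (0.29, adjusted p = 0.366). Under all 15 alternatives run its log2 fold change lay between 0.24 and 0.34.

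The next members in order of adjusted p-value missed the threshold, although DESeq2 called Gimap5 (adjusted p = 0.00404) and Gimap6 (adjusted p = 0.00935) as well as Gimap7 higher, 3 of 8 members where it called 7.02% of all genes higher. Gimap5, required for the survival of peripheral T cells in rodents, was at 125.7, 119.3, 116.7 and 114.4 CPM in WT and 134.5, 141.6, 138.5 and 132.9 CPM in KO mice (log2 fold change 0.19, SE 0.05, adjusted p = 0.0165). Gimap4 was at 660.1, 759.6, 735.7 and 652.4 CPM in WT and 768.8, 799.7, 816.3 and 876.3 CPM in KO mice (log2 fold change 0.20, SE 0.06, adjusted p = 0.0308). Gimap6, which binds an ATG8 protein, was at 587.2, 642.2, 613.1 and 563.0 CPM in WT and 681.6, 710.9, 645.6 and 716.2 CPM in KO mice (log2 fold change 0.18, SE 0.05, adjusted p = 0.0322). In all 3 genes the groups did not overlap, though for Gimap6 the lowest KO mouse was just above the highest WT mouse. Gimap1 also did not overlap, with 138.4, 149.8, 148.1 and 138.9 CPM in WT and 156.5, 168.6, 151.0 and 161.6 CPM in KO mice (log2 fold change 0.14, SE 0.05, adjusted p = 0.0818), and for its antisense partner Gimap1os the log2 fold change was 0.23 (adjusted p = 0.0265).

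The other 3 members overlapped between the splenic groups. Gimap9 was at 102.5 to 110.5 CPM in WT and 109.4 to 126.3 CPM in KO mice (log2 fold change 0.12, 95% interval 0.00024 to 0.23, adjusted p = 0.166). Gimap8 was at 392.3 to 426.9 and 413.1 to 443.2 CPM (0.05, interval -0.05 to 0.16, adjusted p = 0.538). Gimap3 was at 995.4 to 1156 CPM in WT and 1061 to 1088 CPM in KO mice (0.002, interval -0.12 to 0.12, adjusted p = 0.986), so that a change of Gimap3 beyond 1.09-fold in either direction lay outside the interval. Gimap3 was thus the most abundant member in CPM in the spleen and the one whose WT and KO means had the ratio nearest to 1.

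Some markers of other cells moved with genotype in the spleen. The 6 B cell markers summed to 29.6 to 35.4 CPM in WT and 39.0 to 48.6 CPM in KO mice, with Cd22 and Pax5 called higher while Cd79a had a log2 fold change of -0.45 that was not called, and the 5 NK cell markers to 4.67 to 7.90 and 10.8 to 16.1 CPM, with Ncr1 and Klra8 at 0 in every splenic library. Myeloid markers (6 genes) summed to 11.5 to 18.3 and 16.5 to 22.8 CPM, ranges that overlap, with Lyz2 called higher (1.03) and the other 3 tested, Csf1r (-0.24), Adgre1 (-0.82) and Fcgr3 (-0.21), not called. All these sums were small beside those of the T cell and Treg markers, which were at 3342 to 3465 CPM in WT and 3866 to 4316 CPM in KO mice, 5 of the 6 being called higher and Foxp3 lower (log2 fold change -0.55, adjusted p = 6.90e-06). The part of these shifts in the GIMAP values was not tested.

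**Figure D2:**
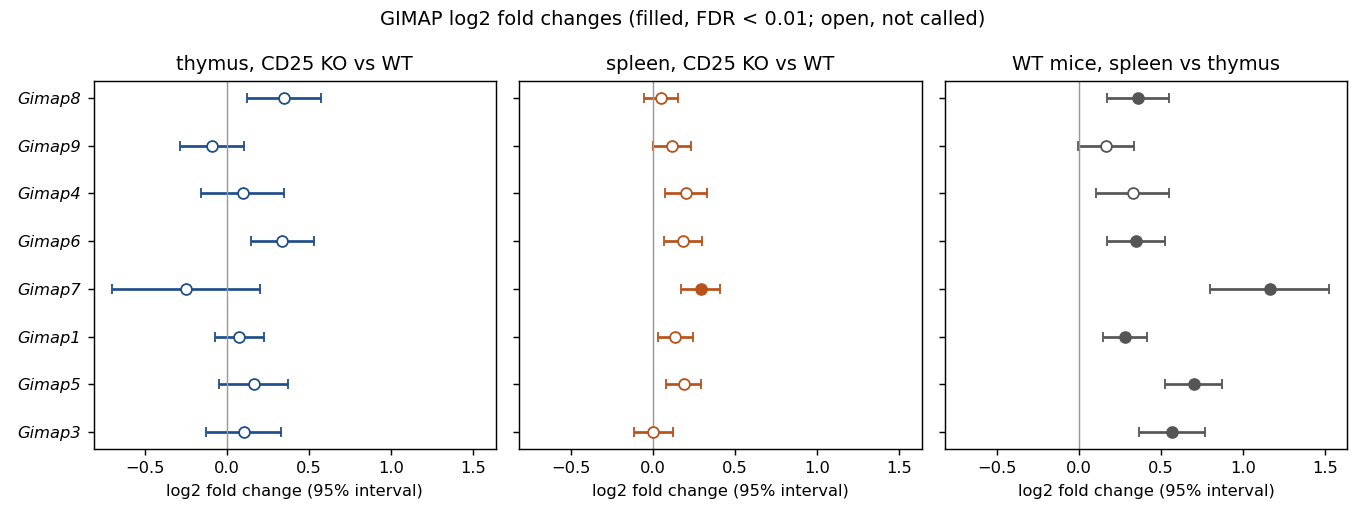
Fold changes of the GIMAP genes. Points are log2 fold changes (x axis) with 95% intervals for each gene (rows, in chromosome order) in the thymic, splenic and WT tissue comparisons, filled where the gene was called at an FDR below 0.01. In the spleen every point lies at or right of 0 and only Gimap7 is filled, in the thymus none is filled, and 6 are filled in the comparison of WT mice.

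In thymic Tregs no member was called, 0 of 8 in each direction, where 3.17% of genes were called higher and 2.99% lower. The members did not share one direction: 6 of 8 log2 fold changes were positive, with a median of 0.10 against -0.002 over all genes. KO and WT mice overlapped for every member. The share of all genes without such overlap was not computed for the thymus, so this only describes the members. Gimap6 and Gimap8 had an adjusted p below 0.05, a level that 12.3% of all genes tested reached with higher values in KO mice. These 2 were also the only members with an unadjusted p below 0.05, which 19.4% of all genes reached with higher values. DESeq2 called both of them higher (adjusted p = 0.00352 and 0.00888), and with them 8.72% of all genes.

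Gimap6 was at 480.5, 525.4, 477.9, 434.2 and 476.2 CPM in thymic WT mice and at 656.0, 502.6, 631.8, 529.3 and 687.2 CPM in KO mice. In 4 of the 5 KO mice it exceeded every WT mouse, and KO mouse 2 fell below WT mouse 2 (log2 fold change 0.34, SE 0.09, adjusted p = 0.0200). Gimap8 was at 352.5, 322.2, 303.3, 354.5 and 285.5 CPM in WT and at 433.6, 344.8, 414.0, 354.3 and 502.7 CPM in KO mice (log2 fold change 0.35, SE 0.10, adjusted p = 0.0311). Here KO mice 2 and 4 lay within the WT range and the other 3 above it. After correction for GC content the log2 fold change of Gimap8 was 0.09 (adjusted p = 0.488).

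Gimap7 showed the lowest fold change of the family in the thymus. It was at 57.3, 54.5, 49.0, 58.0 and 42.2 CPM in WT and at 43.0, 28.2, 44.9, 31.2 and 71.2 CPM in KO mice. KO mice 2 and 4 lay below every WT mouse and KO mouse 5 above every WT mouse, and the difference was within that spread (log2 fold change -0.25, SE 0.21, 95% interval -0.70 to 0.20, adjusted p = 0.402). Without KO mouse 5 the log2 fold change was -0.49, and without KO mice 2 and 4, a choice made after the data were seen, it was 0.03. Gimap9 was at 87.9 to 104.5 CPM in WT and 76.0 to 113.0 CPM in KO mice (log2 fold change -0.09, adjusted p = 0.490). Of the remaining members, log2 fold changes were 0.16 for Gimap5 (adjusted p = 0.240), 0.10 for Gimap3 (adjusted p = 0.515), 0.10 for Gimap4 (adjusted p = 0.579) and 0.07 for Gimap1 (adjusted p = 0.455).

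The thymic KO mice differed from one another across the whole family. KO mouse 5 was the highest of its group for 8 of 8 members, with a median of 0.47 on the log2 scale above the WT mean, while KO mice 2 and 4 were the lowest for 4 members each, with medians of -0.10. KO mice 2 and 4 were also the mice with the most Il2ra transcript, given above, and with the most Mki67, a marker of dividing cells, at 521.0 and 349.6 CPM. Mki67 was at 105.1, 102.5 and 70.1 CPM in KO mice 1, 3 and 5 and between 195.1 and 457.3 CPM in the WT mice. KO mouse 5 also had the largest sum of immature thymocyte markers of its group, 99.7 CPM against 45.2 to 66.4 CPM, and of myeloid markers, 15.0 CPM against 2.97 to 4.14 CPM, both within the WT ranges of 40.2 to 172.3 and 4.76 to 21.1 CPM. The part of these differences in the GIMAP values was not tested. With KO mice 2 and 4 both left out, a choice made after the data were seen, Gimap6 (log2 fold change 0.47, adjusted p = 0.000641) and Gimap8 (0.48, adjusted p = 0.00296) were called higher. That choice takes out the KO mice with the lowest values of both genes, so these calls are no evidence of a rise. More genes were called over the whole table as well, as given below. With KO mouse 2 alone left out, the lowest KO mouse for Gimap6, that gene was called higher (adjusted p = 0.00798).

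**Figure D3:**
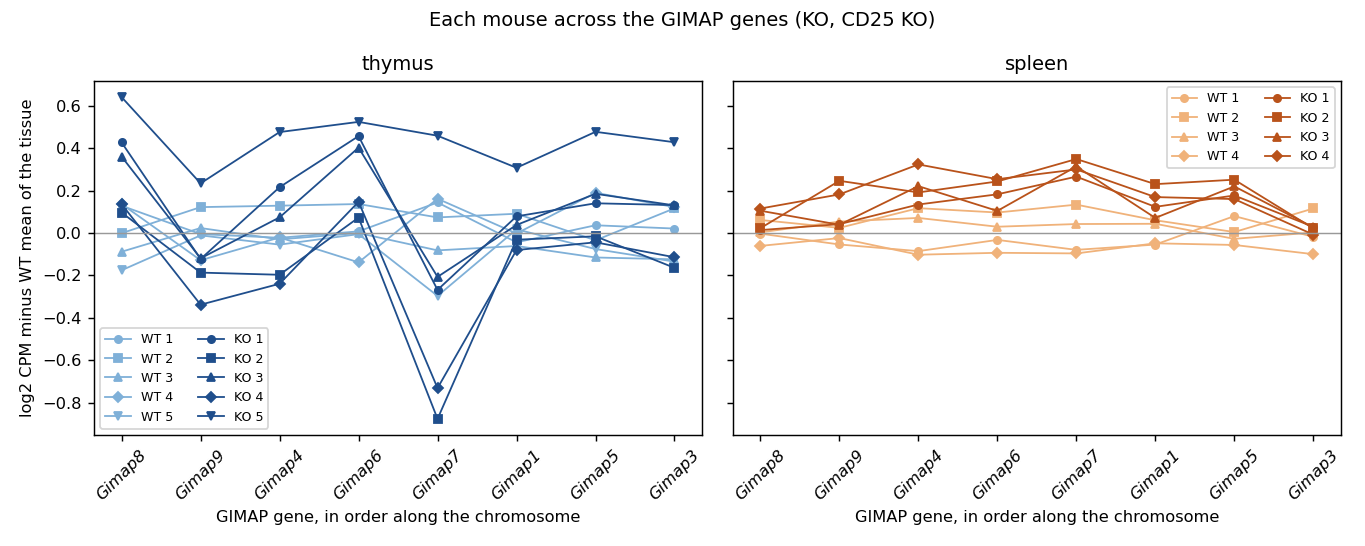
The 8 GIMAP genes within each mouse. Lines join the values of 1 mouse, as log2 CPM minus the mean of the WT mice of the same tissue (y axis), over the genes in chromosome order (x axis), for thymus (left) and spleen (right). Thymic KO mouse 5 runs above all others at 8 of 8 genes, thymic KO mice 2 and 4 drop to -0.88 and -0.73 at Gimap7, and the splenic KO lines stay close together.

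Members varied together from mouse to mouse. Over the 18 libraries the 28 pairs of members had Pearson r between 0.47 and 0.96 (median 0.85) for log2 CPM, and after each group was centred on its own mean r lay between 0.48 and 0.95 (median 0.80). These values describe genes that share libraries and scaling, and carry no test.

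The mix of members was described by each gene's share of the summed CPM per kb, without a test. A share can fall only because other members rise. How often such shares fail to overlap in other sets of genes was not computed. Gimap7 made up 2.35% ± 0.23 of the family in thymic WT, 1.74% ± 0.37 in thymic KO, 3.91% ± 0.08 in splenic WT and 4.40% ± 0.11 in splenic KO Tregs (SD, n = 5, 5, 4 and 4). Gimap8 made up 9.16% ± 0.69 in thymic WT and 10.6% ± 0.18 in thymic KO mice, and these ranges did not overlap (8.48 to 9.90% and 10.3 to 10.8%). Gimap9 was at 6.14% ± 0.39 in thymic WT and 5.25% ± 0.37 in thymic KO mice, with overlapping ranges. Gimap3 was at 32.7% ± 0.55 in splenic WT and 30.1% ± 1.02 in splenic KO mice, where the ranges of 32.0 to 33.2% and 28.7 to 31.1% did not overlap. The splenic log2 fold change of Gimap3 itself was 0.002. The splenic ranges of Gimap7, 3.81 to 4.00% in WT and 4.25 to 4.50% in KO mice, did not overlap either. GC content ran from 41.3% for Gimap8 to 57% for Gimap1, and the shares were not corrected for it.

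**Figure D4:**
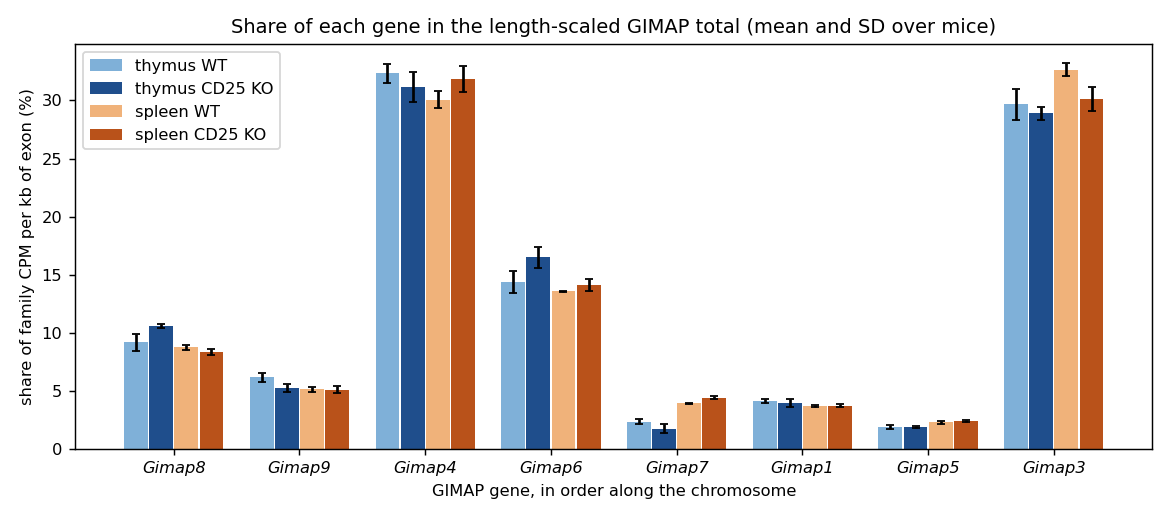
Make-up of the GIMAP family. Bars give each gene's share of the summed CPM per kb of exon (y axis, percent, from 0) in the 4 groups, with the SD over mice as error bars. Gimap4 and Gimap3 each hold 28.9 to 32.7% in every group, and Gimap7 is below 3% in both thymic groups and near 4% in both splenic groups.

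Whether CD25 loss acted differently on the family in the 2 tissues was tested as the difference of the fold changes, spleen minus thymus, in a fit of all 18 samples. No member was called in either direction, where 4.50% of all genes were called higher and 2.49% lower, and 2 members had an unadjusted p below 0.05, as did 32.8% of all genes in either direction. DESeq2 also called 0 of 8. Gimap7 differed by 0.56 on the log2 scale (95% interval 0.04 to 1.07, adjusted p = 0.124) and Gimap8 by -0.28 (interval -0.55 to -0.02, adjusted p = 0.130). With thymic KO mouse 5 left out, the difference for Gimap7 was 0.80 (adjusted p = 0.00325) and passed the threshold. For the other 6 members the differences lay between -0.14 for Gimap6 and 0.22 for Gimap9, with intervals that included 0. The call for Gimap7 in the spleen and its absence in the thymus are therefore not shown to differ.

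Most members were higher in splenic than in thymic WT Tregs. All 8 log2 fold changes were positive and 6 were called, where 21.0% of all genes were called higher and 19.5% lower. The median log2 fold change was 0.35 against 0.01 over all genes. Every splenic WT mouse exceeded every thymic WT mouse for 7 members, an arrangement found in 22.8% of all genes. Tissue, age, tamoxifen, the mouse alleles and the date in the column names, whose meaning is not stated, all changed between these groups and cannot be told apart.

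Gimap7 differed most between the WT groups, from 42.2 to 58.0 CPM in the thymus to 107.6 to 126.3 CPM in the spleen, 2.24-fold (log2 fold change 1.16, SE 0.17, adjusted p = 1.17e-05). Gimap5 was 1.63-fold higher (log2 fold change 0.70, SE 0.08, adjusted p = 7.09e-07), at 68.3 to 84.4 CPM in the thymus and 114.4 to 125.7 CPM in the spleen, and Gimap3 1.48-fold higher (0.57, SE 0.10, adjusted p = 4.72e-05). Gimap8 (0.36, adjusted p = 0.00224), Gimap6 (0.35, adjusted p = 0.00158) and Gimap1 (0.28, adjusted p = 0.00110) were also called. Gimap4 missed the threshold (0.33, adjusted p = 0.0148), as did Gimap9 (0.17, adjusted p = 0.0971), the only member with overlapping groups. Without thymic WT mouse 3 or 5, Gimap8 was not called (adjusted p = 0.0131 and 0.0150), and without thymic KO mouse 5, which enters this fit only through the shared spread and scaling, Gimap4 was (adjusted p = 0.00260).

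Genes within 500 kb of the cluster were examined to set the members in their surroundings. Of 52 other annotated genes there, 24 could be tested within a tissue. In the thymus 0 were called lower and 1 higher, the splicing regulator Tra2a (log2 fold change 0.32, adjusted p = 0.00752). In the spleen 0 were called lower and 3 higher: Sspo (1.33, adjusted p = 0.000193), Gpnmb (1.07, adjusted p = 0.00131) and Repin1 (0.64, adjusted p = 0.00294). None of these 4 lies between the members. The same 3 were called for the difference between tissues. Between the WT groups 7 of 27 tested neighbours were called lower and 12 higher, among them Tmem176a (1.70), Tmem176b (1.29) and AI854703 (1.50), which flank the cluster, and Gm28053 (0.76), which overlaps it, while Igf2bp3 (-2.46) was lower.

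**Figure D5:**
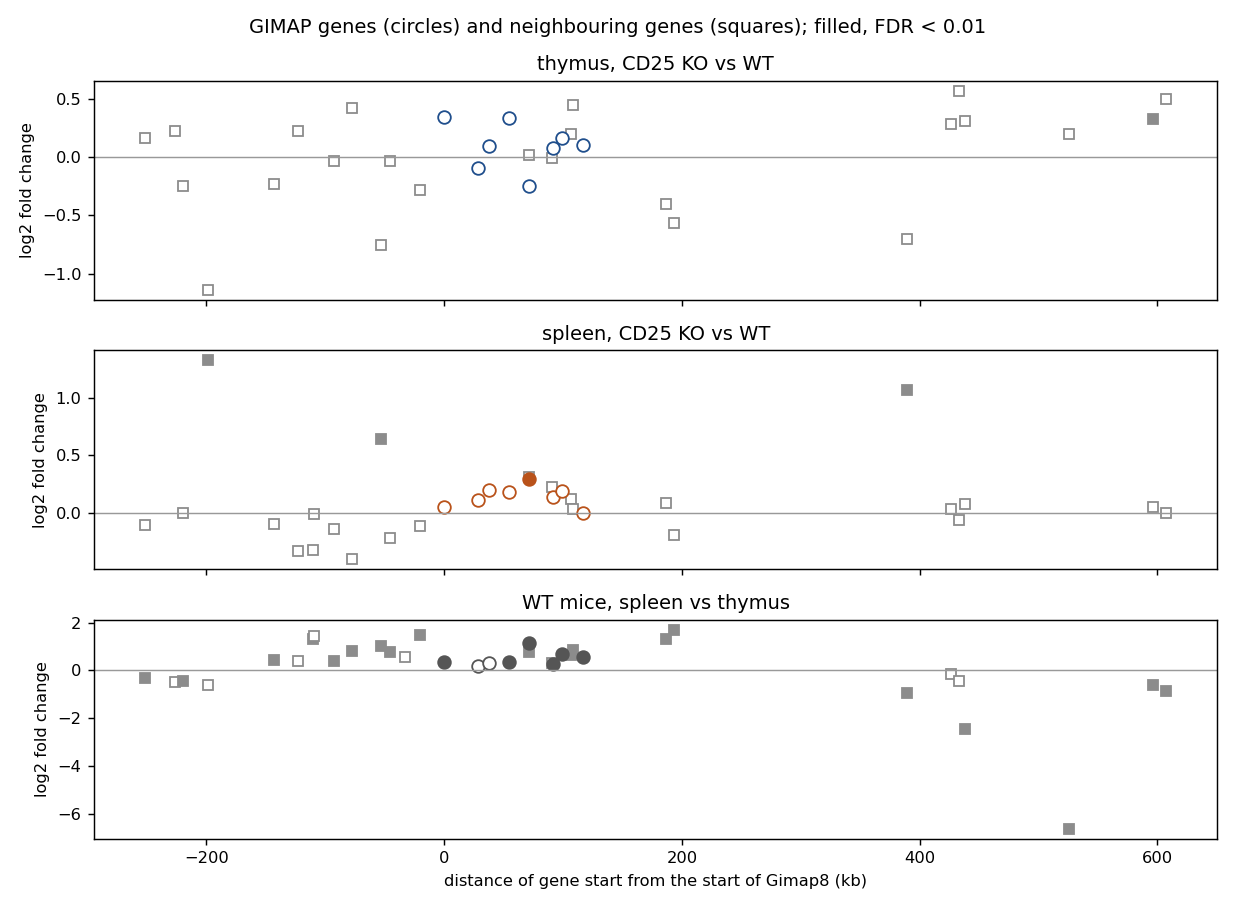
Fold changes along the GIMAP cluster. Log2 fold change (y axis) is plotted against the distance of each gene's start from the start of Gimap8 in kb (x axis) for GIMAP genes (circles) and tested neighbours (squares), filled where called at an FDR below 0.01, in 3 panels for thymus, spleen and WT mice of both tissues. The members form a band close to 0 in both KO comparisons, and circles are above 0 in the lowest panel, where the square near -6.6 is the pseudogene Gm18010, whose mean was 0 in splenic WT and 0.51 CPM in thymic WT mice.

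Genes of the processes to which GIMAP proteins have been linked were counted from lists. Among 15 tested BCL2 family genes, 1 was lower and 1 higher in thymic KO Tregs: Bcl2l1, which encodes the anti-apoptotic BCL-XL (log2 fold change -0.67, adjusted p = 0.00397), and Bcl2l11, which encodes the pro-apoptotic BIM (0.44, adjusted p = 0.000925). In splenic KO Tregs 4 were lower and 5 higher. The lower genes were anti-apoptotic Bcl2 (-1.01, adjusted p = 3.95e-08) and Bcl2l1 (-0.28, adjusted p = 0.00681) and pro-apoptotic Bbc3 (-0.46) and Bcl2l11 (-0.34), and the higher genes included the anti-apoptotic Bcl2a1d (0.95) and Bcl2a1b (0.60) and the pro-apoptotic Pmaip1 (0.81) and Bak1 (0.29). The fold change of Gimap7 in the spleen, 0.29, was thus at the lower end of those called in this list. None of the 5 ATG8 family genes was called in either tissue by edgeR (DESeq2 called 1 lower in the thymus, where it called 7.24% of all genes lower), with 3 at an adjusted p below 0.05 in the thymus, a level that 23.3% of all genes reached in either direction: Gabarapl1 (-0.57), Map1lc3a (0.43) and Map1lc3b (0.41).

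Genes of resting and of effector T cells held more calls than the GIMAP family. Of 14 resting T cell genes, 1 was lower and 1 higher in the thymus, the transcription factors Klf2 (-0.53, adjusted p = 0.00354) and Foxp1 (0.36, adjusted p = 0.00199). In the spleen 6 were lower, including Ly6c1 (-1.30), Bach2 (-0.65) and Ccr7 (-0.60), and 1, Tcf7 (0.24), was higher. The list median in the spleen was -0.24, opposite in sign to the GIMAP median of 0.16. Of the effector Treg genes, 7 of 15 tested were lower and 0 higher in the thymus, led by Klrg1 (-7.08), Il1rl1 (-4.62), Tigit (-2.58) and Itgae (-1.38), and 14 of 16 were higher and 0 lower in the spleen, led by Gzmb (3.41), Il10 (2.02), Ccr2 (1.29) and Tigit (1.28). Of 8 genes for IL-2 receptor chains, STAT5 and its targets, the thymus had 5 lower and the spleen 4, with 0 higher. Both counts include Il2ra, the deleted gene, whose fall the design fixed, and in both tissues the feedback inhibitors Cish, Socs1 and Socs2.

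Outside the family, the genes whose log2 CPM followed the mean of the 8 members most closely over the 18 libraries were Fam49a (Pearson r = 0.97), Idnk (0.96), Gbp5 (0.96), an interferon-induced GTPase, Ctss (0.96), a lysosomal protease, and Nrn1 (0.96), chosen as the 5 highest of 12925 genes. All 5 were called higher in splenic than in thymic WT Tregs, with log2 fold changes from 0.35 for Idnk to 2.45 for Nrn1, and none was called between KO and WT mice in either tissue. The points of these correlations share libraries, depth and the contrast between tissues.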

How the data were processed

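Tregs were sorted by FACS and RNA-seq libraries were made after ribosomal RNA depletion. Per the labels and methods, the authors aligned paired 75-base reads to GRCm38 with STAR 2.5.0b and counted them per gene of GENCODE M13 with featureCounts 1.5.0. The deposited values are raw gene counts, 1 column per mouse. Strand and multi-mapping settings were not given in the sources used here. Names (50376 of 50600 identifiers), exon lengths and overlaps came from the later GENCODE M21, so values per kb and overlap shares may differ from those of the annotation counted. The members and lists were chosen with earlier results of these data known. Counts were tested with edgeR 4.0.16 in R 4.3.3 (filterByExpr, TMM, quasi-likelihood, FDR < 0.01) within each tissue. The difference between tissues and the WT comparison used 1 fit of 18 samples in 4 groups, and the CPM printed used TMM over those 18. The methods name WT littermates as controls, but the labels tie no mouse to a litter. Named neighbours and list genes were those called, at most 4 per direction for lists; 1 of these is not reported here. Scripts were tested on simulated data. Alternatives were DESeq2 1.42.0 (the authors' tool), other normalizations, filters and thresholds, a GC correction, a replicate block and leaving out mice. Mice with the same number did not deviate together, so numbers were not treated as pairs. No 2 libraries of a group agreed within sampling noise. Intervals cover 95%.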

Additional observations from a re-analysis of the deposited data

Results flagged for a closer look

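The level of Gimap4 in thymic WT mouse 2, 619.6 CPM, stood apart from the other 4 mice of its group, which were at 545.5 to 558.4 CPM. The gap to the nearest mouse took 0.8263 of the range of the group, above the limit of 0.71 for 5 samples. It was the only 1 of 32 combinations of gene and group to exceed its limit, and chance alone would do so in about 1 of 20.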

How the results depend on the processing

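Of the members' fold changes recomputed under the alternatives, 146 of 160 in the thymus, 103 of 120 in the spleen, 185 of 192 for the difference between tissues and 186 of 192 between WT groups kept their direction and their side of the threshold. In the thymus the count of members called higher went from 0 to 2 with DESeq2, to 2 at FDR < 0.05, to 2 in a fit of all 18 samples and to 2 without KO mice 2 and 4 (an alternative chosen after seeing the data). All genes called there went from 1047 to 2733, 3951, 2881 and 2008 under the same settings. In the spleen 3 members were called higher with DESeq2 and 4 at FDR < 0.05, but 0 after GC correction and 0 in the fit of 18 samples, and all genes called went from 1651 to 3001 at FDR < 0.05 and 795 in the fit of 18. For the difference between tissues all genes called went from 1305 to 2193 with DESeq2 and 3149 at FDR < 0.05. The cause of these shifts was not tested.

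With the replicate number as a block (replicate block) in the thymus, 209 genes were called, and 253 with a GC correction added, where the log2 fold change of Gimap4 was -0.09963. The block called no member. Correlations of deviations between mice of the same number ran from -0.29 to 0.09, so mice shared only a number. Fold changes that turned sign were small after the turn, but thymic Gimap7 had been at -0.25 before it. In the thymus Gimap4 turned after GC correction (-0.08637), and Gimap7 (0.03161) and Gimap9 (0.01389) without KO mice 2 and 4. In the spleen Gimap3 turned with upper-quartile scaling (-0.02787), without a filter (-0.001033) and after GC correction (-0.02368). Gimap8 turned there after GC correction (-0.05828). The tissue differences of Gimap1 (-0.003002) and Gimap5 (-0.03821) turned with upper-quartile scaling. GC correction also ended the call for Gimap1 between WT groups (0.2447, adjusted p = 0.0201) and brought one for Gimap4 (0.422, adjusted p = 0.00197).

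Leaving out 1 mouse at a time gave 0 to 1 members called higher in the thymus, 0 to 1 in the spleen and 0 to 1 for the tissue difference, with 371 to 1087, 1099 to 1723 and 817 to 1489 genes called. The thymic count dropped by over 1.5 times without WT mouse 2 (380), 3 (401) or 5 (428) or KO mouse 1 (406) or 3 (371), the splenic count without WT mouse 3 (1099), and the difference without splenic KO mouse 2 (817). The log2 fold change of Gimap4 in the thymus ran from -0.01616 to 0.1658, that of Gimap3 in the spleen from -0.03232 to 0.04372, and the tissue differences of Gimap3 and Gimap5 from -0.1513 to 0.007918 and from -0.01844 to 0.1269. Among the lists, the thymic effector count of 7 lower was 4 without WT mouse 2 or 5 and 3 without KO mouse 1, and the 5 splenic T cell and Treg markers called higher became 2 after GC correction and without WT mouse 4, 3 without any 1 of the other splenic mice but KO mouse 3, and 1 in the fit of 18. The 5 splenic BCL2 family genes called higher became 3 after GC correction, in the fit of 18 and without WT mouse 1 or 3 or KO mouse 2 or 4. The thymic call for Bcl2l1 was lost without WT mouse 2 or KO mouse 1 or 3, that for Klf2 without WT mouse 2, 3 or 5 or KO mouse 3, and the splenic call for Tcf7 without any 1 WT mouse or KO mouse 2 or 4.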
